A study of Mus musculus with 9 samples.

Results

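The ketone body enzymes and transporters are 8 mouse genes, named for their roles in ketone metabolism: the mitochondrial enzymes Bdh1, Oxct1 and Acat1, the cytosolic enzymes Bdh2, Aacs and Acat2, and the monocarboxylate carriers Slc16a1 and Slc16a7. All 8 were found among the 55471 gene identifiers of the count files, and 6 of the 8 were among the 14918 identifiers with enough counts to test. The libraries are polyA RNA of OT-I CD8+ T cells, whose transgenic receptor recognises an ovalbumin peptide. In the control group (n = 4) the cells carried wild-type Bdh1 and an shRNA against firefly luciferase, which is absent from mouse cells. In the group called DKO (n = 5) the labels give a Bdh1 knockout together with an shRNA against Oxct1, so one gene was targeted in the genome and the other by RNA interference. Both groups were activated in culture with anti-CD3 and anti-CD28 antibodies and IL2, transduced, sorted on the Ametrine reporter of the shRNA vector and transferred into C57BL/6 mice of the CD45.1 type. The recipients were infected 1 day later with LmOVA, which is Listeria monocytogenes expressing ovalbumin, and transferred cells were sorted again on day 7. The labels give no age, and do not say whether libraries of a group came from separate donors or recipients, so the p-values measure the spread between these libraries.

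Ketone bodies are small fuels that the liver makes from fatty acids and that other tissues burn. A cell takes up beta-hydroxybutyrate and acetoacetate through monocarboxylate carriers, BDH1 oxidises beta-hydroxybutyrate to acetoacetate in mitochondria, OXCT1 moves a coenzyme A group from succinyl-CoA to acetoacetate, and the thiolase ACAT1 splits acetoacetyl-CoA into acetyl-CoA. In the cytosol AACS can activate acetoacetate directly and ACAT2 interconverts acetoacetyl-CoA and acetyl-CoA at the start of sterol synthesis, so these enzymes form a second route that does not need OXCT1. In T cells acetyl-CoA is both a mitochondrial fuel and the donor for histone acetylation, which is the subject named in the title of the study. The comparison asks which of these genes effector cells express, how far each target was lowered, and whether any other gene of the route was higher in DKO.

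Library totals in genes ran from 45205993 to 59853080 counts, and 67.0 to 74.0% of a library's reads fell in genes. Control replicate 1 had the lowest share in genes (67.0%) and the highest share unmapped (16.7%). The next were 71.8% and 12.3%, both in DKO replicate 4. All 8 markers of CD8 T cells in the list used here exceeded 1 CPM (a read count scaled to a common library total, with totals adjusted by the trimmed mean of M-values, TMM), with Cd8a between 662.9 and 797.04 CPM over the 9 libraries. Of 12 myeloid, 8 B cell, 8 erythroid and platelet and 4 CD4 T cell markers, 8, 4, 5 and 2 exceeded 1 CPM on average. The CD8 T cell markers summed to 7082 to 9611 CPM in control and 6570 to 7093 CPM in DKO (exact permutation p 0.0317, two-sided, and 0.0635 adjusted over 6 lists). The highest sum was that of control replicate 1, and the other control libraries reached at most 7978 CPM. Without control replicate 1 the log2 ratio of DKO over control was -0.13 in place of -0.23 (exact permutation p 0.0714). Cd8b1 passed the edgeR threshold as lower in DKO (log2 fold change -0.40, adjusted p 0.0428), the only 1 of the 8 to pass. Cd8a averaged 718.9 CPM in control and 715.2 CPM in DKO (adjusted p 0.973, edgeR). Cd5 was the higher in DKO, at 251.7 and 296.8 CPM (adjusted p 0.270), and the rest of the list was lower without passing. Among B cell markers Pax5 had no count in any library, Ighm was at 172.7 to 258.2 CPM, and Cd79b, Igkc and Cd22 averaged 4.06 to 7.39 CPM by group. Cd4 did not exceed 0.662 CPM. Of the same list, Cd40lg had control and DKO means of 20.4 and 29.4 CPM. Zbtb7b went the other way, at 14.6 and 11.8 CPM. Neither passed the edgeR threshold (adjusted p 0.135 and 0.247). The sum over this list averaged 35.2 and 41.7 CPM (exact permutation p 0.0635, two-sided, and 0.0952 adjusted over 6 lists). Summed over the list, myeloid markers were at 166.1 to 200.6 CPM in control and 116.4 to 126.7 CPM in DKO, and the 20 cell cycle genes at 848.6 to 993.2 and 1130.3 to 1835 CPM (exact permutation p 0.0159 for each list, two-sided, the smallest this design allows, and 0.0476 after Benjamini-Hochberg adjustment over 6 lists). Ctss, Itgam and Cd68 made up most of the myeloid sum (control means 81.1, 58.9 and 29.1 CPM, DKO means 51.2, 38.1 and 16.8 CPM), and Ctss and Cd68 passed as lower. Lyz2 averaged 2.43 and 5.84 CPM and Csf1r 1.84 and 2.37 CPM, higher in DKO without passing, and S100a8 had no count in control. The part of other cells or of dividing cells in the values below was not tested. Control replicate 1 stood apart within its group. Its counts differed from each other control library by a chi-square of 172.7 to 203.1 per degree of freedom, against 24.7 to 42.4 among the other 3. Some values are therefore also given without it.

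Several genes have reference sequence around their starts that bears on how their reads were counted. Windows of 300 bases, 250 before to 50 after a RefSeq start (GRCm38.p6), were found for 6 of the 8 genes. Those of both targeted genes, of the cytosolic dehydrogenase gene Bdh2 and of the cytosolic synthetase gene Aacs are shown, because they hold the transcript starts of the loci on which the results turn. Capitals mark the dinucleotide CG, which reads the same on both strands. All 5 lie on the plus strand.

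Bdh1 first start, chr16:31422047-31422346: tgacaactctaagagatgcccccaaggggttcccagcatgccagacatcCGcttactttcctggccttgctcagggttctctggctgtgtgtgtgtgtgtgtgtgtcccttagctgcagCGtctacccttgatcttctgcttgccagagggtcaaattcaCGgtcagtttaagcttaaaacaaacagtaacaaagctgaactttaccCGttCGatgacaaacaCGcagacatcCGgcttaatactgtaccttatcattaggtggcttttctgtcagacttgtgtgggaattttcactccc

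Bdh1 second start, chr16:31428503-31428802: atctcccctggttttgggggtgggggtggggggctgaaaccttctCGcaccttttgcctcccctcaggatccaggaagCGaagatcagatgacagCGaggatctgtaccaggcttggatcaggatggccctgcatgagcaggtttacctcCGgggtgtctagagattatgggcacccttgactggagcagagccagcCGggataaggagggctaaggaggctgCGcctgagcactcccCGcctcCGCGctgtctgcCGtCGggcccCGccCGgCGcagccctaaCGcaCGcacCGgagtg

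Oxct1, chr15:4026178-4026477: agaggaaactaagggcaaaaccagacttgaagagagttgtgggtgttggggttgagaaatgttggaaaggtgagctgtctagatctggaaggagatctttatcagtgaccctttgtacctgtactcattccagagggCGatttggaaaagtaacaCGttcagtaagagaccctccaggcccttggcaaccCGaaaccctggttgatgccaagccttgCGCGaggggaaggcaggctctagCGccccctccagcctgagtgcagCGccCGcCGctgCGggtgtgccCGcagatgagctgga

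Bdh2, chr3:135280971-135281270: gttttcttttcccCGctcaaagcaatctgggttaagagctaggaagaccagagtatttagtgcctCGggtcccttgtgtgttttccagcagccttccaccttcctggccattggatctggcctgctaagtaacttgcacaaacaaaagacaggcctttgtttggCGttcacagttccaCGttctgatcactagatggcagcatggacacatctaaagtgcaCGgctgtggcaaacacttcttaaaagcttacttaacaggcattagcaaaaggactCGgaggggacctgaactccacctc

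Aacs, chr5:125475623-125475922: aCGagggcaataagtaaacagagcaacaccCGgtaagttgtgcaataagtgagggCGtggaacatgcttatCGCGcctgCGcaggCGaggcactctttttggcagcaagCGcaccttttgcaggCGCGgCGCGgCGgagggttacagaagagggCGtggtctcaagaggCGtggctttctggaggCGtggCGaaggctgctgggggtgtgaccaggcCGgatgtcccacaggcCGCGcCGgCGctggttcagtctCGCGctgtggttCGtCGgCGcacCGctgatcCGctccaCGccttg

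The first Bdh1 window holds 7 CG and the second 17. The windows of Oxct1 and Bdh2 hold 11 and 6, the Acat2 window 10. The Aacs window holds 30 CG and the Slc16a1 window 42, and 11.7% and 3.03% of the 32851 windows in the table hold at least as many, against 56.4% for Bdh2 and 41.4% for Oxct1. The second Bdh1 window lies wholly within exon sequence of Gm15743, an antisense gene on the opposite strand, and the Oxct1 window wholly within exon sequence of BC037032, a noncoding gene that is also on the opposite strand. Because the libraries do not mark strand, reads in exon sequence common to both genes of a pair cannot be given to either. The part of a window before the start of its gene is not such sequence.

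Bdh1 (ENSMUSG00000046598.15, a protein-coding gene at 31422280 to 31458901 of chromosome 16, plus strand, in GRCm38) encodes the dehydrogenase that admits beta-hydroxybutyrate to the mitochondrial route. Its level was 25.1, 35.1, 30.2 and 31.5 CPM in control replicates 1 to 4, and 11.6, 11.5, 11.4, 8.98 and 9.62 CPM in DKO replicates 1 to 5. Every DKO library lay below every control library, and the lowest DKO count was still 455 reads. Control averaged 30.5 ± 4.16 CPM (SD, n = 4) against 10.6 ± 1.24 CPM for DKO (SD, n = 5), so 34.9% of the control level remained in cells labelled as a knockout. In edgeR's quasi-likelihood fit its log2 fold change was -1.52 (SE 0.13, 95% interval -1.79 to -1.24), with an adjusted p of 1.36e-04 (Benjamini-Hochberg, over all genes tested). In bulk RNA, fewer cells carrying a transcript and less of it per cell cannot be told apart, here or for any gene below. A count per gene does not show where along Bdh1 the remaining reads lay.

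Oxct1 (ENSMUSG00000022186.14, at 4026383 to 4155344 of chromosome 15, plus strand) encodes the transferase that commits acetoacetate to oxidation. Control replicates 1 to 4 were at 71.5, 62.2, 59.7 and 59.2 CPM, and DKO replicates 1 to 5 at 4.60, 5.49, 5.08, 5.51 and 5.12 CPM. The groups were far apart, and DKO libraries varied little among themselves: their coefficient of variation was 7.16%, against 6.15% from counting alone. It fell from a mean of 63.1 ± 5.73 CPM (SD, n = 4) to 5.16 ± 0.369 CPM (SD, n = 5), which left 8.17% of control (log2 fold change -3.61, SE 0.10, 95% interval -3.83 to -3.39, adjusted p 4.58e-09 in the same edgeR test). In the 9 libraries Bdh1 and Oxct1 were the only members past the threshold, 2 of 6 tested and both lower. Across all tested genes 2.83% passed in either direction, 1.51% lower and 1.32% higher. The groups did not overlap for these 2 members alone, where 8.71% of all tested genes did not overlap. As the hairpin and the knockout were aimed at these genes, their fall checks the labels and nothing is read from the share.

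Reads shared with the opposite-strand genes were followed separately, as the 2 strand columns count them and the unstranded column leaves them out. For Bdh1 they numbered 223, 389, 199 and 389 in control and 108, 120, 102, 101 and 99 in DKO, or 15.8% and 16.3% of the strand-column total. The shared stretch was therefore lower in DKO in every library, as was the rest of the gene, and with the strand columns summed the log2 fold change of Bdh1 was -1.51. For Oxct1 the shared reads numbered 369, 449, 298 and 415 in control and 53, 67, 54, 51 and 59 in DKO. They made up 10.5% of the total in control and 17.7% in DKO, and the log2 fold change of the summed columns was -3.49. Gm15743 by itself had 26 counts in control and 39 in DKO, summed over libraries, and BC037032 had 174 and 138.

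**Figure D1:**
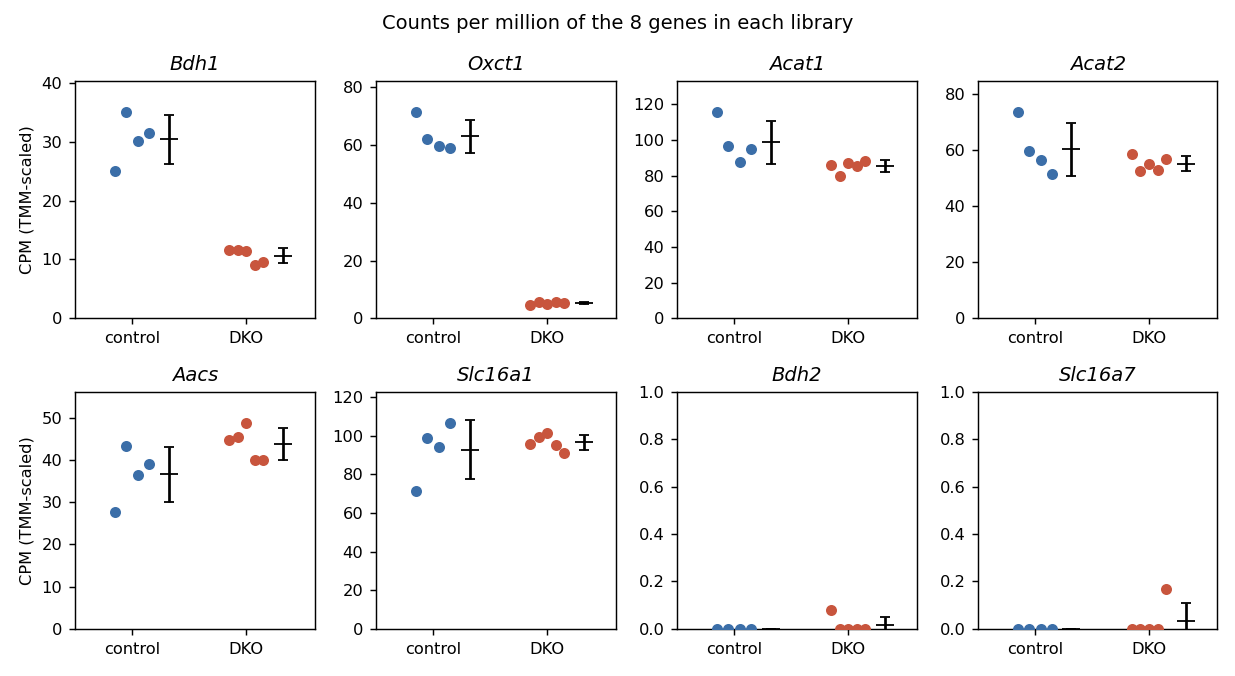
Each panel plots 1 gene, with CPM (TMM-scaled) on a linear axis from 0 and 1 point for each of the 4 control (blue) and 5 DKO (red) libraries; black marks give mean and SD. Bdh1 and Oxct1 separate the groups, the DKO points of Oxct1 lie between 4.60 and 5.51 CPM, and Bdh2 and Slc16a7 each lie above 0 in 1 DKO library.

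Acat1 (ENSMUSG00000032047.5, minus strand of chromosome 9, 53580522 to 53610382) encodes the mitochondrial thiolase that finishes ketolysis and also acts in isoleucine breakdown. It was at 115.8, 96.5, 87.7 and 95.1 CPM in control and 86.2, 79.6, 87.1, 85.6 and 88.1 CPM in DKO. DKO libraries were the lower ones on the whole, but control replicate 3 lay within their range. The means were 98.8 ± 12.0 CPM (SD, n = 4) and 85.3 ± 3.33 CPM (SD, n = 5), a ratio of 0.864 with a 95% interval of 0.754 to 0.989 (adjusted p 0.274 and unadjusted p 0.0363, edgeR's quasi-likelihood test). Acat1 did not pass the threshold here or under any of 16 alternatives, over which its log2 fold change stayed between -0.26 and -0.14. Without control replicate 1 it was -0.14 (95% interval -0.27 to -0.01).

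Acat2 (ENSMUSG00000023832.14, minus strand of chromosome 17, 12942890 to 12960747) encodes the cytosolic thiolase. Its values were 73.7, 59.8, 56.4 and 51.6 CPM in control and 58.8, 52.7, 55.1, 53.0 and 56.7 CPM in DKO. The DKO range fell within that of control, and control replicate 1 was the highest of the 9 libraries. Means were 60.4 ± 9.48 CPM (SD, n = 4) and 55.3 ± 2.56 CPM (SD, n = 5), a ratio of 0.915 with a 95% interval of 0.782 to 1.07 (adjusted p 0.598, edgeR). Without control replicate 1 the log2 fold change was -0.03 in place of -0.13 over all libraries. Acat2 has a close relative beside it, Acat3, and 39.1% of its distinct 50-base transcript windows also occur in transcripts of Acat3 or of Tcp1, whose exons overlap those of Acat3 on the opposite strand. Reads that map to both copies are not in these counts, so the level of Acat2 is a lower estimate. Acat3 had 41 unstranded counts over all libraries, against 24313 in the summed strand columns. The unstranded column leaves out reads shared with Tcp1, so the level of Acat3 is unresolved. No 50-base window of Acat1, Bdh2 or Slc16a1 occurs in an annotated transcript of another gene.

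Aacs (ENSMUSG00000029482.4, plus strand of chromosome 5, 125475814 to 125517410) encodes acetoacetyl-CoA synthetase, the enzyme by which acetoacetate can be activated without OXCT1. Control replicates 1 to 4 were at 27.7, 43.2, 36.6 and 39.0 CPM, and DKO replicates 1 to 5 at 44.6, 45.4, 48.8, 40.03 and 39.9 CPM. Of the 5 DKO libraries 3 lay above every control library, the other 2 lay between the upper control libraries, and control replicate 1 was far below the rest. Means were 36.6 ± 6.54 CPM (SD, n = 4) and 43.8 ± 3.81 CPM (SD, n = 5), a ratio of 1.20 with a 95% interval of 0.988 to 1.45 (log2 fold change 0.26, SE 0.13, adjusted p 0.348 and unadjusted p 0.0640, edgeR). The estimate was on the higher side under all 16 alternatives, from 0.13 to 0.35, and passed the threshold under none. Without control replicate 1 it was 0.13 (95% interval -0.06 to 0.33), about the lowest of that range.

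Bdh2 (ENSMUSG00000028167.15, plus strand of chromosome 3, 135281221 to 135304426), whose product is a cytosolic hydroxybutyrate dehydrogenase, had 0 counts in the 4 control libraries. In DKO it had 4 counts, all in replicate 1, or 0.0790 CPM there. A group total of 0 allows up to 3 counts, or 0.0145 CPM over the control libraries, and no fold is given against it. No count at all was found for 3 related genes. Oxct2a and Oxct2b, the copies of Oxct1 known from testis, and Hmgcll1, a cytosolic relative of the enzymes of ketone formation, had 0 counts in all 9 libraries. No second transferase was thus counted, but depth is not the only limit. Reads that map to both Oxct2a and Oxct2b would not be in these counts, and their shared sequence was not examined. The opposite-strand gene Gm17244 also overlaps the Oxct2b start window, where unstranded counts leave shared reads out. This floor covers counting error only, since the libraries carry no molecular identifiers, whereas the 95% intervals come from the spread between libraries.

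Slc16a1 (ENSMUSG00000032902.1, plus strand of chromosome 3, 104638668 to 104658462) encodes the carrier MCT1, which moves ketone bodies and lactate across the plasma membrane. It was at 71.3, 98.9, 94.05 and 106.6 CPM in control and 95.4, 99.4, 101.4, 95.03 and 91.2 CPM in DKO. The DKO libraries lay within the control range, whose low end was control replicate 1. The ratio of DKO to control was 1.04 with a 95% interval of 0.883 to 1.23 (means 92.7 ± 15.2 CPM, SD, n = 4, and 96.5 ± 4.01 CPM, SD, n = 5; adjusted p 0.839, edgeR). Its direction was not stable, as the log2 fold change of 0.06 became -0.06 without control replicate 1 and -0.02 in limma-voom. Slc16a7 (ENSMUSG00000020102.15, minus strand of chromosome 10, 125219270 to 125389465), the gene of the carrier MCT2, had 0 counts in control and 8 in DKO, all 8 in replicate 5 (0.169 CPM). Of the 2 carrier genes, Slc16a1 alone had counts in every library.

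**Figure D2:**
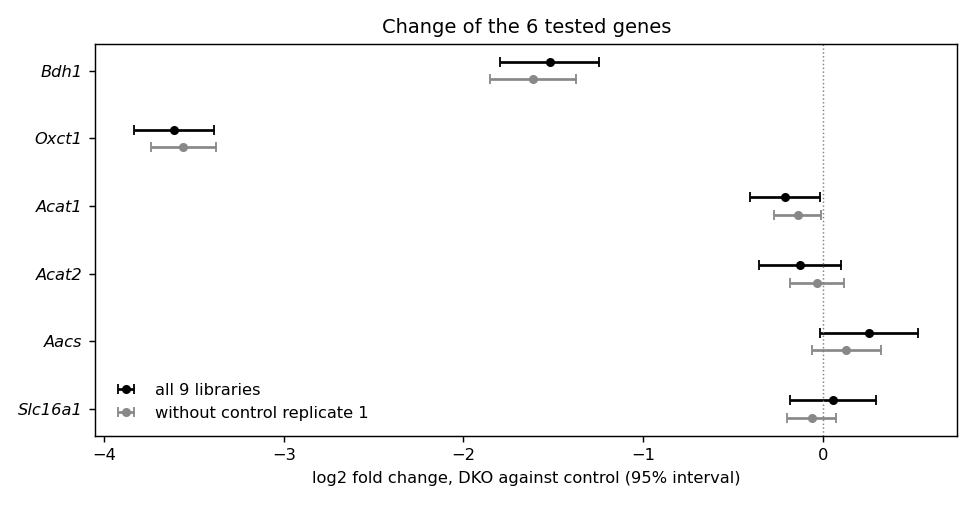
Points give the log2 fold change of DKO against control for the 6 tested genes and bars its 95% interval, in black for all 9 libraries and in grey without control replicate 1. Bdh1 and Oxct1 lie at -1.52 and -3.61, and the intervals of Acat2, Aacs and Slc16a1 cross 0 in both fits.

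Levels were compared between genes as TPM (transcript abundance in the same kind of unit), which first divides counts by the combined length of a gene's exons. In control Acat1 came first at 83.0 ± 5.25 TPM (SD, n = 4), before Acat2 at 74.9 ± 8.10, Slc16a1 at 66.9 ± 13.5, Oxct1 at 54.0 ± 2.20, Aacs at 30.3 ± 6.56 and Bdh1 at 25.0 ± 4.41 TPM. Only Oxct1 and Aacs, among neighbours in that order, had library values that did not overlap (at least 51.2 TPM for Oxct1 and at most 36.4 TPM for Aacs). Acat1 exceeded Acat2 in all 4 control libraries and Aacs exceeded Bdh1 in all 4, although the ranges overlap, while Acat2 exceeded Slc16a1 and Slc16a1 exceeded Oxct1 in 3 of the 4. Within the tested genes of the control group the 6 members stood between the 62.2 percentile, for Bdh1, and the 84.7 percentile, for Acat1.

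In DKO the order was Acat1 at 74.0 ± 3.49 TPM (SD, n = 5), Slc16a1 at 71.1 ± 3.83, Acat2 at 70.8 ± 4.22, Aacs at 37.1 ± 3.84, Bdh1 at 8.92 ± 1.17 and Oxct1 at 4.54 ± 0.269 TPM. The first 3 overlapped, and each of the later steps separated the library values completely. Oxct1 thus moved from behind Slc16a1 to the last place. The difference between group means, DKO minus control, was -49.4 TPM for Oxct1 and -16.1 TPM for Bdh1. For Aacs it was 6.72 TPM, for Slc16a1 4.23, for Acat2 -4.09 and for Acat1 -9.01 TPM. In single libraries Aacs stood at 0.372 to 0.668 times Oxct1 in control (median 0.610) and at 6.97 to 9.31 times in DKO (median 7.95). The TPM of Aacs itself overlapped between the groups. The median ratio of Oxct1 to Bdh1 was 2.02 in control and 0.499 in DKO. No member rose past the threshold in DKO, and the upper bounds of the 95% intervals were 1.45-fold for Aacs, 1.23-fold for Slc16a1, 1.07-fold for Acat2 and 0.989-fold for Acat1.

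**Figure D3:**
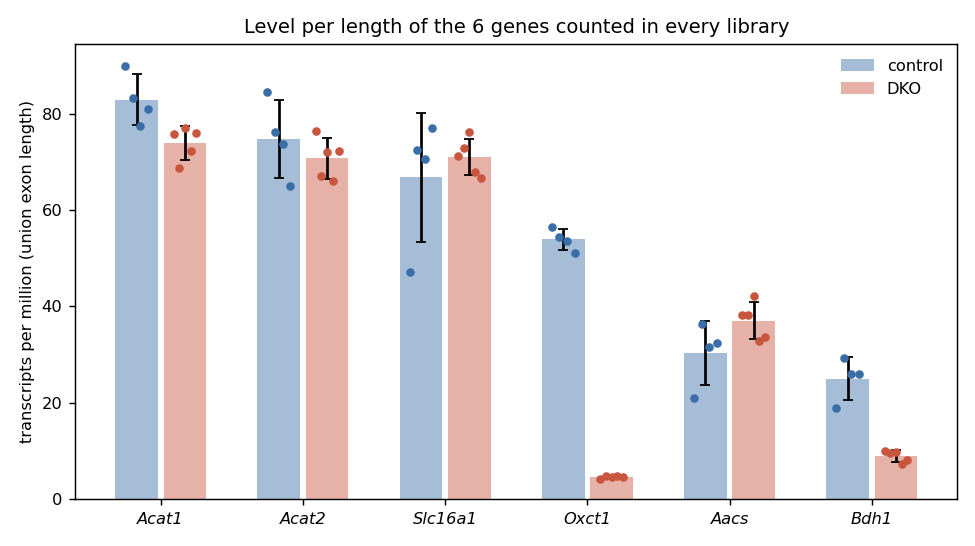
Bars give the mean TPM of each gene in control (blue) and DKO (red), black lines the SD and points the libraries, on a linear axis from 0. Oxct1 goes from 54.0 to 4.54 TPM and Bdh1 from 25.0 to 8.92 TPM, while the group means of the other 4 genes differ by -9.01 TPM (Acat1) to 6.72 TPM (Aacs).

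The 6 tested members also differed in how they varied within a group. Among control libraries the coefficient of variation of CPM was 9.07% for Oxct1, 12.1% for Acat1, 13.7% for Bdh1, 15.7% for Acat2, 16.4% for Slc16a1 and 17.8% for Aacs, where counting alone gives 1.40 to 2.50%. Among DKO libraries it was 3.91% for Acat1, 4.16% for Slc16a1, 4.64% for Acat2 and 8.71% for Aacs. Each was lower than in control over all 4 libraries, but control replicate 1 carried much of that spread. Without it the control values were 5.10% for Acat1, 6.37% for Slc16a1, 7.30% for Acat2 and 8.49% for Aacs, so that Aacs was no longer the more variable in control. For Bdh1 and Oxct1 they were 7.82% and 2.64%, below the 11.6% and 7.16% of DKO. In DKO, where counts of these 2 genes were lower, counting alone gives 4.28% for Bdh1 and 6.15% for Oxct1. Control replicate 1 took opposite ends for different members: it was the highest control library for Oxct1, Acat1 and Acat2 and the lowest for Bdh1, Aacs and Slc16a1.

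The profiles closest to each target were sought over the 9 libraries, as the root mean square difference of log2 CPM after centring each gene on its control mean. For Oxct1 these were Tex11 (0.54), Srcin1 (0.67) and Fam187b (0.98), all distant on this log2 scale. Tex11 and Fam187b lay near the floor, at 0.697 and 0.479 CPM in control and 0 and 0.0638 CPM in DKO. At such levels log2 CPM depends on the prior count. For Bdh1 they were Bmpr1a (0.19), the antisense gene Gm38204 (0.20) and 5830444B04Rik (0.21). Bmpr1a, a receptor for bone morphogenetic proteins on chromosome 14, fell from 3.01 ± 0.244 CPM (SD, n = 4) to 1.11 ± 0.255 CPM (SD, n = 5). Since it was picked for its closeness to a lowered gene, a fall was built into the choice, and no p is given. None of these 6 genes lies on the chromosome of its target.

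Other genes of ketone and acetyl-CoA metabolism were taken from 8 lists with 82 genes, of which 63 were tested. Of those 63, 1 rose past the threshold and 0 fell, where 1.32% and 1.51% of all tested genes did. The median log2 fold change was -0.01, as over all tested genes (-0.01), with 30 of the 63 higher and 33 lower. In the same 63, 11 had an unadjusted p under 0.05 in edgeR, and DESeq2 and limma-voom called 6 and 4. Over all tested genes the shares were 16% unadjusted, 7.1% in DESeq2 and 6.68% in limma-voom, and the counts given for single lists below stand against those shares. No count could be made for 9 of the 82 genes, which had 0 counts in all libraries, and 10 more had too few to test.

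The gene that rose was Slc16a10, which encodes TAT1, a carrier of aromatic amino acids in the family of MCT1. It was at 1.26, 1.61, 0.995 and 0.791 CPM in control and 2.87, 3.93, 2.90, 2.69 and 2.24 CPM in DKO. The groups did not overlap, at a low level, with a log2 fold change of 1.33 (SE 0.25) and an adjusted p of 0.0188 in edgeR. It kept the threshold under 12 of 16 alternatives and lost it narrowly without control replicate 4 (adjusted p 0.0542), without DKO replicate 1 (0.0503) or replicate 3 (0.0512), and with the replicate number as a block (0.0558). Of the 19 carriers and chaperones in its list 12 were tested, 6 higher and 6 lower, with a median of -0.01. Slc5a8, a sodium-coupled carrier that can take up ketone bodies, and Slc16a14 had 0 counts in every library. The most abundant of the list were Bsg, the chaperone that brings MCT1 to the membrane, at 516.9 ± 38.0 TPM in control (SD, n = 4) and 587.2 ± 22.8 TPM in DKO (SD, n = 5, adjusted p 0.501 in edgeR), and the related Nptn (162.8 ± 17.5 and 172.8 ± 14.7 TPM, adjusted p 0.839). Slc16a3, which encodes the lactate exporter MCT4 and was named after its values were seen, was at 5.51 ± 0.588 and 6.44 ± 0.904 TPM (adjusted p 0.525), and Slc16a1 stood at 9.84 to 13.1 times Slc16a3 in control libraries and 9.09 to 13.0 times in DKO.

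Leucine is an amino acid whose breakdown ends in acetoacetate, and of the genes on that path 0 of 9 tested passed (median -0.07, 1 with an unadjusted p under 0.05, 0 in DESeq2 and 1 in limma-voom). Bcat2 and Dbt, the most abundant of them in control by unstranded counts, were at 29.1 ± 2.54 and 27.9 ± 5.26 TPM in control and 27.1 ± 2.23 and 23.1 ± 1.29 TPM in DKO, with adjusted p of 0.547 and 0.182 in edgeR. Without control replicate 1 Dbt passed as lower (log2 fold change -0.40, adjusted p 0.0168, edgeR). The rank of Bckdha, at 15.4 TPM in control, is unresolved. Its strand columns held 5.52 times its unstranded counts, which leave out reads shared with an overlapping gene. In the list of ketone sensing and its regulators 2 of 8 were tested and 0 passed, Cpt1a and Sirt3, the latter with reads shared with an overlapping gene (adjusted p 0.381 and 0.944, unadjusted p 0.0798 and 0.838, 0 calls in DESeq2 and limma-voom). Ffar3, a receptor that beta-hydroxybutyrate can bind, and the liver regulator Foxa2 had 0 counts.

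The supply and use of succinyl-CoA, the coenzyme A donor of OXCT1, was covered by 7 tested genes, of which 0 passed (median -0.10, 2 with an unadjusted p under 0.05, 2 calls in DESeq2 and 1 in limma-voom). Sucla2, a subunit of succinyl-CoA synthetase, was the closest to the threshold. Its level was 171.4, 133.03, 125.0 and 119.5 CPM in control and 100.1, 105.0, 100.2, 106.9 and 111.2 CPM in DKO, without overlap (log2 fold change -0.39, SE 0.10, adjusted p 0.0795, edgeR). It passed under 3 of 16 alternatives, with an adjusted p from 0.0120 to 0.284. The fit without control replicate 1 was among the 3 (log2 fold change -0.28, adjusted p 0.0216, edgeR). Ogdh, which makes succinyl-CoA, was at 162.4 to 310.9 TPM in control and 279.8 to 323.1 TPM in DKO (adjusted p 0.548).

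The remaining 3 lists had 0 genes past the threshold in edgeR. Of 8 tested thiolases and hydroxyacyl-CoA dehydrogenases, which could handle related substrates, 2 were higher and 6 lower (median -0.05, 1 with an unadjusted p under 0.05, 0 calls in DESeq2 and limma-voom). Acaa2, a mitochondrial thiolase, was at 242.9 ± 29.5 TPM in control (SD, n = 4) and 214.03 ± 11.3 TPM in DKO (SD, n = 5, adjusted p 0.348), and Scp2 at 132.1 ± 18.8 and 110.0 ± 3.34 TPM (adjusted p 0.216). In the list of other acetyl-CoA sources, which also holds acetyl-CoA users such as Cs, 5 of 8 tested genes were higher and 3 lower (median 0.05, 2 with an unadjusted p under 0.05, 0 calls in the other tools). The 2 most abundant, Acly, which makes cytosolic acetyl-CoA from citrate, and Acss1, which activates acetate in mitochondria, had adjusted p of 0.857 and 0.854 in edgeR, while Acss3 and Acot12 had 0 counts. Of 17 sterol synthesis genes, which use the product of Acat2, 10 were higher and 7 lower (median 0.02, 4 with an unadjusted p under 0.05, 3 calls in DESeq2 and 1 in limma-voom). Dhcr7 and Srebf2, the most abundant of them in control, were at 39.5 ± 3.23 and 47.6 ± 13.0 TPM in control and 41.03 ± 3.36 and 53.6 ± 3.85 TPM in DKO (adjusted p 0.954 and 0.685).

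**Figure D4:**
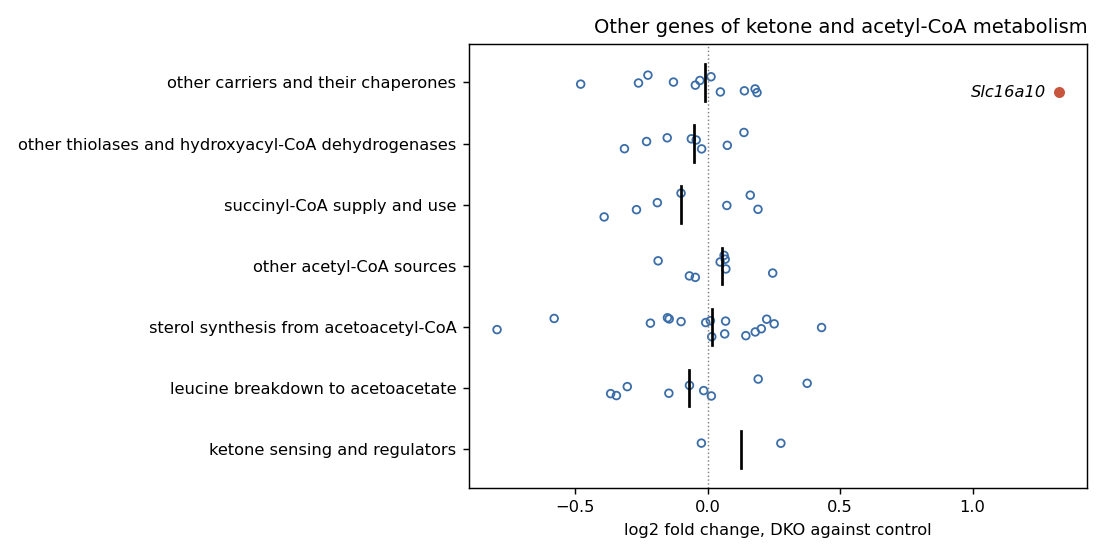
Each point is 1 tested gene of 1 list, placed by its log2 fold change of DKO against control, and the black line is the median of the list. Open points did not pass the threshold; the only filled one is Slc16a10 at 1.33, and the medians of the 7 lists with tested genes lie between -0.10 and 0.13.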

How the data were processed

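Counts were analysed for 9 RNA libraries of mouse CD8+ T cells, 4 control and 5 DKO, grouped by the labels. The deposited counts are whole numbers of reads per gene, 1 file per library, with an unstranded column and a column per strand, as STAR writes them. Per the submitters' processing notes, Trim Galore 0.6.0, STAR 2.7.8a and the build mm10 were used; the annotation is not given in the sources used here. Only reads mapped once are counted in this layout. Per the labels' protocols, libraries were made with Takara Smartseq v4 and Nextera Flex. The strand columns were near equal (49.9 to 50.1% in the first), so the unstranded column was used. The summary lines stayed out of totals and tests. Per library they held 10.3 to 16.7% unmapped reads, 5.80 to 6.79% multimapping reads, 4.01 to 5.20% outside any feature and 4.97 to 5.31% of ambiguous origin.

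Of 55471 identifiers, 55230 were found in GENCODE M21 (GRCm38) without version. DKO was tested against control with edgeR 4.0.16 (quasi-likelihood, robust, TMM) in R 4.3.3 after filterByExpr (minimum count 10, minimum total 15), at an adjusted p of 0.05 over 14918 genes; the test was tested on simulated data. CPM used TMM-scaled library sizes and log2 CPM a prior count of 2. TPM used the union of annotated exons. Alternatives were DESeq2 size factors, DESeq2 1.42.0, limma-voom (limma 3.58.1), no filter, 1 CPM in 4 libraries, the replicate number as a block, summed strand columns, each library left out, and the longest transcript as length. Tables were made with Python 3.11.15, pandas 2.3.3, numpy 2.4.6 and scipy 1.17.1, and figures with matplotlib 3.10.9. No 2 libraries of a group were duplicates.

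The members were listed by name, with no threshold on their values, but they, the lists and the alternatives were chosen with earlier results of these data known. Named were all members, list genes past the threshold, the 2 most abundant and the undetected genes of each list, opposite-strand neighbours, and the 3 closest profiles to each target. Some genes are not reported here and were left out of the pathway lists before counting.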

Additional observations from a re-analysis of the deposited data

Results flagged for a closer look

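Within a group, single libraries lay far from the others for 5 of the values above (gap to the nearest library over the group's range, judged at the 95% level), out of 44 groups examined, where chance gives about 1 in 20. Bdh2 had its only counts in DKO replicate 1 (0.0790 CPM), and Slc16a7 in DKO replicate 5 (0.169 CPM). With 0 in every other DKO library, the rule flags such genes in any case, so the 1 in 20 does not apply to them. Control replicate 1 was low for Acly (277.8 CPM, against 443.3 to 469.99 in the other control libraries) and for Ogdh (303.1 CPM, against 496.1 to 529.9). DKO replicate 4 was low for Ogdh as well (481.6 CPM, against 524.4 to 540.6). No member with counts in every library was among them.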

How the results depend on the processing

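Bdh1 and Oxct1 kept their direction and the threshold under all 16 alternatives (log2 fold changes -1.62 to -1.44 and -3.64 to -3.49), and Acat1, Acat2 and Aacs kept their direction and passed under none. The number of genes past the threshold, 422, was 1059 with DESeq2, 996 with limma-voom, and 179 to 749 with 1 library left out: 749 without control replicate 1, 187 without control replicate 4, and 179, 280, 180, 221 and 228 without DKO replicates 1 to 5. The replicate number does not pair libraries (correlations of deviations between same-numbered libraries -0.12 to 0.01, and no library correlated best with its own number); with it as a block, 67 genes passed, and no call on a member changed. The 1 list gene past the threshold became 6 with DESeq2, 4 with limma-voom, 2 with summed strand columns, 0 with the block, and 0 to 3 with 1 library left out. The 3 came without control replicate 1 and were Dbt, Slc16a10 and Sucla2. Log2 fold changes near 0 changed sign in limma-voom for Slc16a1 (-0.025), Acly (-0.050), Dhcr7 (-0.022) and Srebf2 (-0.0029), and for Dhcr7 with the stricter filter (-0.00058) and the block (-0.025). With 1 library left out they ranged from -0.062 to 0.133 for Slc16a1, -0.013 to 0.091 for Nptn, -0.095 to 0.138 for Acly, -0.138 to 0.0033 for Acss1, -0.031 to 0.052 for Dhcr7, -0.025 to 0.233 for Srebf2 and -0.070 to 0.051 for Sirt3. Control levels per length moved with the longest transcript to 43.0 TPM for Oxct1, 69.6 for Acat1, 64.3 for Acat2 and 50.8 for Slc16a1, and with summed strand columns to 51.6, 71.1 and 64.1 TPM for the first 3, in the same order; the cause was not tested for any of these. Depth limits Bdh2 and Slc16a7, which had 4 and 8 counts in all.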
